A study of Mus musculus with 24 samples.

Results

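RRBS of brown adipose tissue (BAT) from infant mice gave 2977 MspI fragments that carried little methylation and that the deposited annotation placed away from CpG islands and gene starts. They were chosen by 4 criteria. The fragment was not in an island core, its distance to the island named for it was above 2000 bp and its distance to the start of the gene named for it was above 5000 bp. It also had at least 10 CpG calls in at least 8 of the 12 vehicle (VEH) libraries, with a mean VEH methylation level of 20% or less. The level of a fragment in a library is the percentage of its CpG calls that were methylated. These members made up 4.54% of the 65535 fragments in the table and 28.5% of the 10444 fragments that met the same distance and coverage criteria. Chromosome 1 held 988 of them, chromosome 2 held 1447 and chromosome 3, which the table covers only in part, held 542. The VEH levels chose the members, so their VEH values are given as a description. The 12 DDT libraries took no part in the choice.

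The study followed perinatal exposure to the insecticide DDT into the methylation of infant BAT. Each of the 24 libraries was BAT pooled from the female C57BL/6J pups of 1 litter at postnatal day 12. The dams had been gavaged in pregnancy and early lactation with olive oil (12 VEH litters) or with DDT, as p,p'-DDT with a smaller part of o,p'-DDT, in that oil (12 DDT litters). BAT is a mixture of brown adipocytes with vascular, blood, nerve and stromal cells, and a level is an average over all of them.

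Most CpGs of mammalian DNA are methylated. The main exceptions are CpG islands, stretches rich in CpG and in G and C that usually sit at transcription starts. Outside islands, low methylation is known from active enhancers and from sites where transcription factors hold the DNA. RRBS cuts at CCGG, so every fragment starts with a CpG. Repair of the cut ends fills in an unmethylated cytosine at each end of a fragment, and a read that runs to the far end of a short fragment reads that cytosine. Reads were single-end and 50 bp long.

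The kinds of member are easiest to see in their sequences, which were read from GRCm38 and are shown 5′ to 3′ on the forward strand with every CpG in capitals. The first 7 were CpG-poor fragments of 50 bp or more in introns or between genes, more than 5000 bp from any annotated start, with both ends found 1 time in the genome. They come from the low end of such members and are not typical in level. The mean DDT level of each was below 8.65%, the lower quartile of the 259 CpG-poor members of 50 bp or more, whose median was 12.1%.
chr1:179847718-179847842, between genes, Ahctf1 named by the authors: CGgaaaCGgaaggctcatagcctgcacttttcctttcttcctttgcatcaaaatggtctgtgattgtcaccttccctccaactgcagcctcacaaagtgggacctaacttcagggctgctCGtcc
chr1:86503375-86503524, upstream of Ptma: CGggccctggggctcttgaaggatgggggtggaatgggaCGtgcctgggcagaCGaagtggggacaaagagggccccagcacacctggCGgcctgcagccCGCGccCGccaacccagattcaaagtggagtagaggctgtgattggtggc
chr1:120596914-120596996, upstream of En1: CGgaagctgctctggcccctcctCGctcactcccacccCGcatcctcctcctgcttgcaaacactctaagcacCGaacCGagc
chr1:180387557-180387631, intron of Itpkb: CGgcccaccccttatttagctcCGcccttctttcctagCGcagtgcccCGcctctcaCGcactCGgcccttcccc
chr2:158546916-158546980, intron of Arhgap40: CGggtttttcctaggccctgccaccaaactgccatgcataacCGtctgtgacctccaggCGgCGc
chr2:165195891-165195953, intron of Cdh22: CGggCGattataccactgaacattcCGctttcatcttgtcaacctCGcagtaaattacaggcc
chr3:100124968-100125099, intron of Spag17: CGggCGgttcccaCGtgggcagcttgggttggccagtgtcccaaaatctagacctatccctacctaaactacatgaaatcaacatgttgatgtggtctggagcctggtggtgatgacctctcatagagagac

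The next 3 were short fragments whose single CpG is that of the cut site itself, the other form common among CpG-poor members.
chr1:75404628-75404675, intron of Speg: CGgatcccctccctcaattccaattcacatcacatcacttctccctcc
chr1:132571176-132571214, intron of Nfasc: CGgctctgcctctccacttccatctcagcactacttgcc
chr1:89831032-89831072, intron of Agap1: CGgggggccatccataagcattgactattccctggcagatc

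The last is a member 336 bp before the start of Kif26b, a kinesin gene, shown because most members were of its kind, near a start that the deposited annotation did not use.
chr1:178528754-178528789, upstream of Kif26b: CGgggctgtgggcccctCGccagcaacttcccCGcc

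The label of the set was checked against the transcript starts of GENCODE M21 and RefSeq on GRCm38, and for most members it did not hold. In all, 1852 of the 2977 members (62.2%, 95% Wilson interval 60.5 to 63.9) lay within 1000 bp of an annotated start, and 370 (12.4%) overlapped one. Of the 7467 covered fragments that met the same distance criteria with a VEH level above 20%, 1004 (13.4%) lay that close, whereas the share over all 21350 covered fragments of the table was 59.8%. With protein-coding transcripts alone the members' share was 50.9%. The interval counts fragments as independent, although many share a start, so it is likely too narrow. The surround gave a like picture. A window of 500 bp was CpG-dense (GC content of at least 50%, observed over expected CpG of at least 0.6) for 1851 members (62.2%) and for 5.96% of the fragments above 20%. Inside a CpG island found by a scan of the genome sequence lay 1875 members (63.0%) and 6.66% of the fragments above 20%. Over all covered fragments the shares were 53.6% for a CpG-dense window and 54.1% for an island of the scan. The scan found 4232 islands over the stretch of the table, where the deposited annotation names 1875 islands. The fragments are therefore called here by their rule, as low-methylation fragments that the deposited distances place far away.

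**Figure D1:**
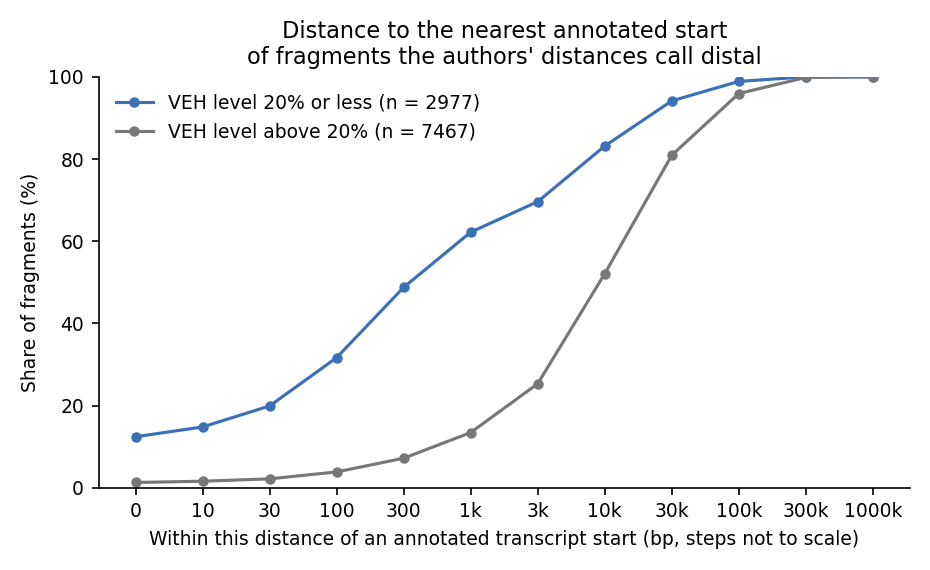
Cumulative share of fragments (y axis, %) within a given distance of the nearest annotated transcript start (x axis, bp, steps not to scale), for the 2977 members and for the 7467 fragments above 20% chosen by the same distances. The members' curve is at 12.4% at a distance of 0 and at 62.2% within 1000 bp, where the other curve is at 1.30% and 13.4%.

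The distances in the table often ran to other genes and islands than the nearest ones. For the 1852 start-proximal members the gene named was the gene of the nearest start in 567 cases (30.6%), the median distance to the named gene was 36466.5 bp and to the named island 62385 bp. Their nearest starts belonged to 516 genes, of which 305 (59.1%) were named anywhere in the table. Over all members the gene named was that of the nearest start in 30.3% of cases. The share was 31.2% for the covered fragments above 20% chosen by the same distances and 50.8% over all covered fragments. The printed fragment 336 bp before the start of Kif26b was listed 190958 bp from Hnrnpu, which encodes a nuclear RNA-binding protein.

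Members were sorted into 4 classes by position and sequence alone, with class limits that were set after the levels had been seen. These were the 1852 start-proximal members, 367 CpG-dense members away from starts, 499 CpG-poor members of 49 bp or less and 259 CpG-poor members of 50 bp or more. Only 554 members (18.6%) were CpG-poor and more than 5000 bp from every annotated start. The 4 classes differed in the level they had in the DDT libraries, where the median was 4.75% for start-proximal members, 6.03% for CpG-dense members away from starts, 12.8% for the short CpG-poor members and 12.1% for the long ones. The quartiles were 2.53% and 9.24% for start-proximal members and 10.2% and 16.0% for the short CpG-poor members. Thus CpG-poor members sat closer to the limit of 20% that chose them. They also rested on fewer calls, with a median of 339 per library for start-proximal members, 291 for CpG-dense members away from starts, 135 for the short CpG-poor members and 95.5 for the long ones.

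**Figure D2:**
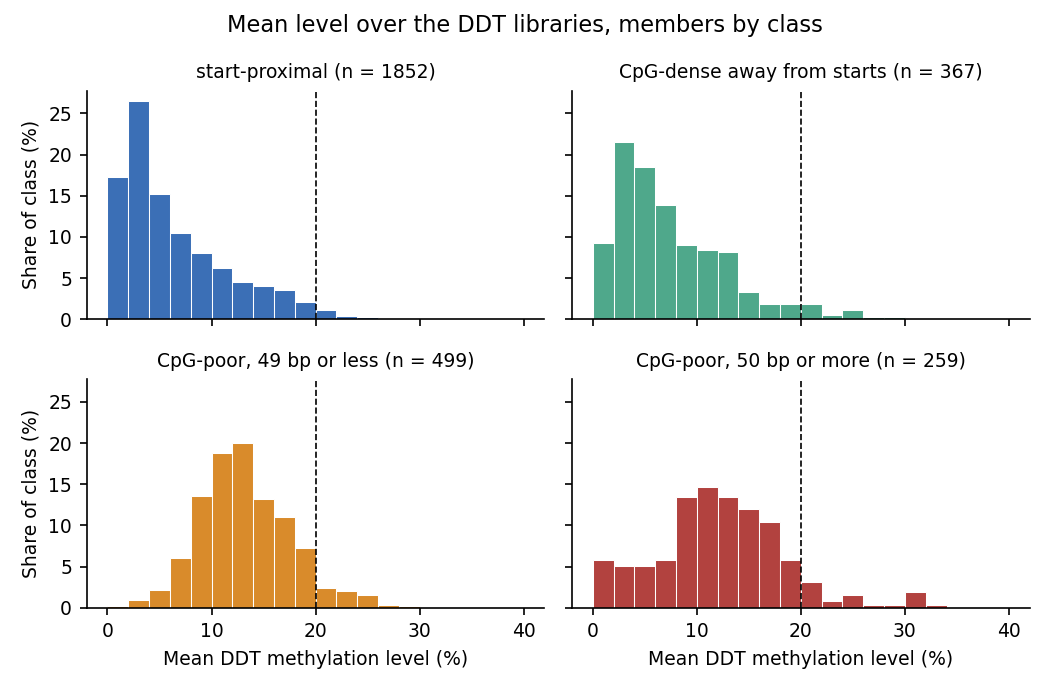
Distribution of the mean DDT level of members (x axis, %, in steps of 2 percentage points) as a share of each class (y axis, %), with a dashed line at the 20% limit that was applied to VEH levels. Start-proximal members pile up below 6%, while both CpG-poor classes peak between 8% and 16%.

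Across the 12 DDT libraries, which had no part in the choice, 2871 members (96.4%) had a mean level of 20% or less and the median of all members was 7.07%. The share was 98.1% for start-proximal members, 95.9% for CpG-dense members away from starts, 93.4% for short CpG-poor members and 91.5% for long ones. Of the fragments above 20% in VEH with a DDT level, 110 (1.47%) were at 20% or less in DDT. Near the limit the choice turned on small differences. Just inside it, each at 19.9% in VEH, lay chr2:144705934-144705969 in an intron of Dtd1, with a DDT mean of 16.5%, chr2:57116907-57116986 in Nr4a2, with 15.6%, and chr3:34490219-34490323 upstream of Mir1897, with 22.3%. Just outside lay fragments in Speg, Nek6 and Cstad, with DDT means of 16.5%, 20.3% and 22.6%.

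Library by library, the mean level of members was low in the 12 DDT litters as well. In the VEH litters a low mean was set by the choice. The number of members with a level was 2771 to 2964 in VEH libraries and 1936 to 2959 in DDT libraries, and the mean level of members was 7.56% to 8.79% in VEH and 5.74% to 9.82% in DDT. DDT replicate 4 stood apart. It had the fewest members with a level (1936), 72 calls at the median member and a median level of 0.02%. In that library 62.1% of the covered fragments far by the deposited distances were at 1% or less or at 99% or more, against 6.02% to 11.5% in the libraries other than DDT replicates 4 and 12. DDT replicate 12, at 10.6%, was within that range, but its median level of members, 4.44%, was below the 5.45% to 7.11% of the remaining DDT libraries. Without both, DDT libraries held 2613 to 2959 members with a level, the median DDT level of members was 7.16%, and the share at 20% or less was 96.98%. Total calls were 8371958 to 13768991 in VEH and 9895508 to 14124652 in DDT libraries. In each library except DDT replicate 4, start-proximal members had the lowest median, then CpG-dense members away from starts, then both CpG-poor classes. The short CpG-poor members had the higher median of those except in VEH replicates 2 and 10.

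**Figure D3:**
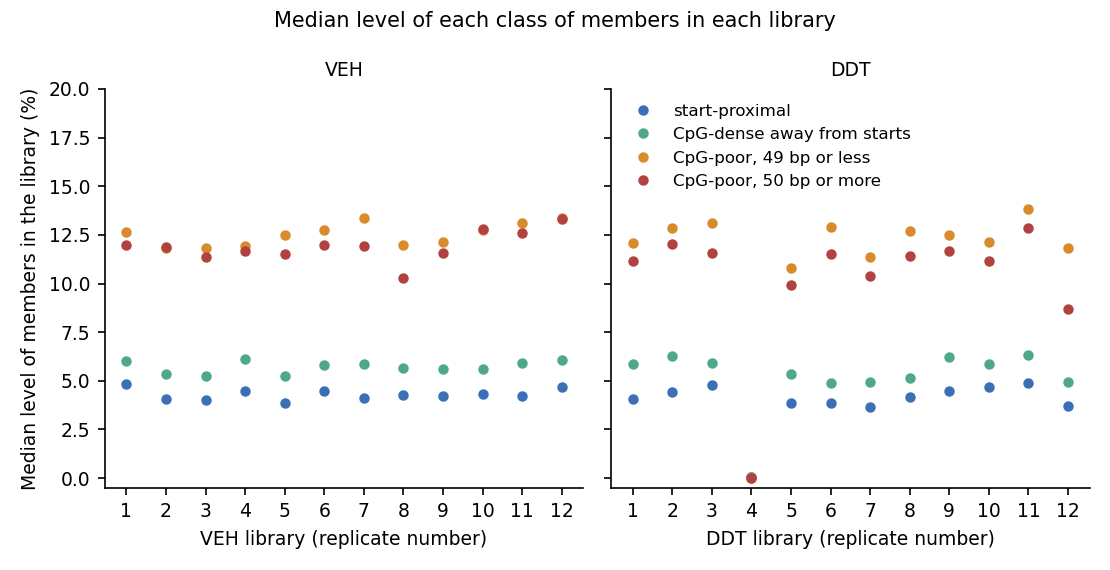
Median level (y axis, %) of the members of each class in each of the 12 VEH libraries (left) and 12 DDT libraries (right), 1 point per class and library. Start-proximal members lie between 3.89% and 4.83% in VEH, short CpG-poor members between 11.8% and 13.4%, and DDT replicate 4 lies near 0 for every class.

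Start-proximal members held most of the lowest levels. Of the 8 members with the lowest DDT mean and a median of at least 50 calls in each group, 6 were start-proximal. They lay at or near starts of Dgkz, Uqcc1, Uck2, Gm13620, 4930577N17Rik and A930004D18Rik, with DDT means between 0.092% and 0.290%. Dgkz encodes a kinase of diacylglycerol and Uqcc1 an assembly factor of respiratory complex III. At the Uqcc1 start, chr2:155930228-155930285, the nearest covered fragments lay 26659 and 14429 bp away and had DDT levels of 73.2% and 80.6%. At the start of Sgk3, a serine kinase gene, chr1:9798068-9798116 was at 0.883% to 1.23% over the VEH libraries and 0.038% to 1.61% over the DDT libraries, on a median of 9974.5 calls. Overlap with a start did not fix the level. The fragments that overlapped starts of Tmem185b and the adjoining Gm27184, chr1:119526149-119526344 and chr1:119526345-119526400, had DDT levels of 17.6% ± 7.98 and 0.999% ± 0.517 (SD, n = 12).

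Start-proximal members came in runs. Joining members of any class less than 2000 bp apart gave 1294 runs, of which 176 held 5 or more members and together 1345 of the 2977. The longest had 18 members each. One covered the start of Kif26b at chr1:178527695-178530855, assigned to Hnrnpu, with 9 start-proximal members and 9 CpG-dense members further out. Their mean DDT level ran from 0.407% to 28.1%, with 17 of 18 at 20% or less. At the fragment printed above, 336 bp before the start, it was 2.63% ± 1.29 (SD, n = 12). The fragment that overlapped the start, chr1:178528986-178529162, was the run's highest in VEH at 14.5% ± 2.30 (SD, n = 12), and was at 12.3% ± 3.27 in DDT. The only member of the run above 20% in DDT, chr1:178530492-178530536, had a median of 11.5 calls per library.

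The other run of 18 covered the start of Enah, a regulator of actin filaments, at chr1:182018893-182020702, and was assigned to Srp9. All of its 18 members were start-proximal, with mean DDT levels between 0.582% and 14.0%. Its lowest member overlapped a start and its highest lay 523 bp from one. In a run of 17 at the start of Sp3, which encodes a zinc finger factor that binds GC boxes, DDT means ran from 0.789% to 14.6% over chr2:72978758-72980941. Here the 2 fragments that overlapped a start were at 2.96% and 2.90%. Further runs of 12 to 16 members lay at the starts of Kdm5b, Vav2, Sort1, Uck2, Taf4, Fmnl2, Bdnf, Gnas and Ino80d, with mean DDT levels from 0.045% to 22.0%. Runs of this size were not made of start-proximal members alone. In Zfp697 all 12 members of a run were CpG-dense and away from starts. The same held for 9 of 12 members in Maml3 and 9 of 13 at chr1:78216059-78217702. Members of 1 run lie close together and are not independent of each other.

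CpG-poor members stood alone. Of the 259 long ones 192 were the only member of their run, as were 432 of the 499 short ones. The levels around them differed accordingly. Within 100 bp of a start-proximal member, other covered fragments had a median DDT level of 4.22%, and 96.7% were at 20% or less. Within 100 bp of a long CpG-poor member the median was 67.4% and 27.2% were at 20% or less, and for short CpG-poor members the values were 55.1% and 28.1%. At 500 to 1000 bp the medians were 5.08%, 12.6% and 13.9% for start-proximal, long and short CpG-poor members. Around short CpG-poor members the median did not stay low, and was 38.8% at 1000 to 2000 bp (68 pairs). The pairs behind the CpG-poor values numbered 136 and 121 within 100 bp and 36 and 52 at 500 to 1000 bp.

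**Figure D4:**
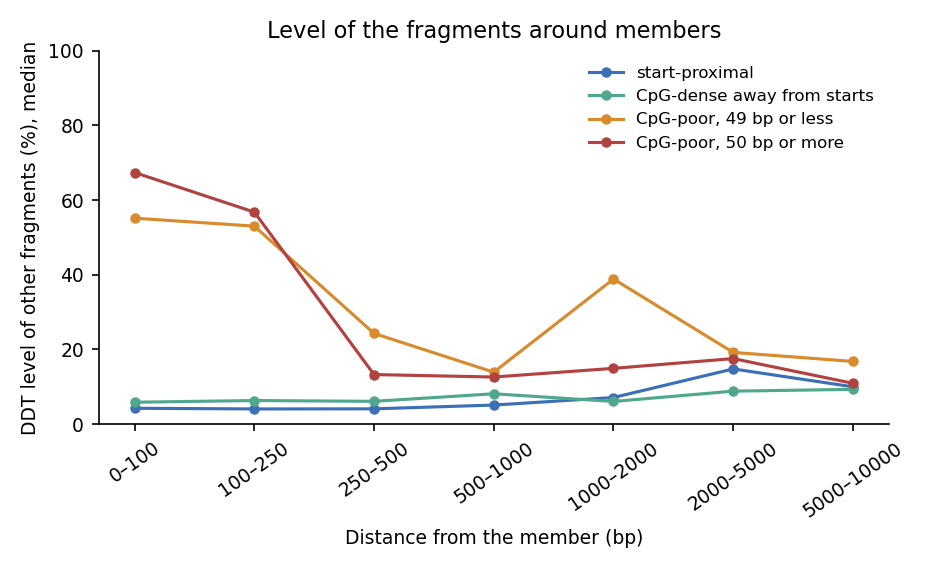
Median DDT level (y axis, %) of other covered fragments by their distance from a member (x axis, bp between midpoints, bins not to scale), 1 line per class of member. Within 100 bp the medians are 4.22% around start-proximal members and 67.4% around long CpG-poor members, and beyond 250 bp the medians around long CpG-poor members are below 20%. Around short CpG-poor members the median is 38.8% at 1000 to 2000 bp.

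The lowest of the long CpG-poor members was the fragment between genes at chr1:179847718-179847842, 30572 bp from the nearest start and assigned to Ahctf1, which encodes a protein of nuclear pore assembly. It held 3 CpGs. Over the DDT libraries 0 of its 2511 calls were methylated, which allows a level of up to 0.119% by counting error, and over the VEH libraries 2 of 2145 were. All 12 DDT libraries were thus at 0. The covered fragment next to it had a DDT level of 8.78%.

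Upstream of Ptma, the gene of prothymosin alpha, chr1:86503375-86503524 was at 0.00% to 7.57% (median 1.92%) over the VEH libraries and 0.00% to 2.22% (median 0.964%) over the DDT libraries. It holds 7 CpGs over 150 bp, and reads of 50 bp do not reach those near its middle, so the level covers only the CpGs nearer its ends. The fragment that adjoined it had a DDT level of 63.9%. Thus a low and a mostly methylated fragment met at 1 cut site, 23033 bp from the start of Ptma.

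In the Spag17 intron the step was steeper. Spag17 encodes a protein of motile cilia. The member chr3:100124968-100125099 was at 2.85% to 6.21% (median 4.51%) in VEH and 0.00% to 7.52% (median 4.46%) in DDT, on a median of 676.5 calls per library, and the adjoining fragment had a DDT level of 97.03%. All 3 CpGs of the member lie in its first 15 bases, as the printed sequence shows.

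The neighbours of other long CpG-poor members varied. The Itpkb intron fragment (6 CpGs), in the gene of a kinase for inositol trisphosphate, was at 1.85% to 5.44% over the DDT libraries on a median of 1264 calls, and its neighbour was at 0.438%. In Cdh22, a cadherin gene, the printed fragment was at 0.00% to 8.57% in DDT, between neighbours at 1.38% and 19.1%. The member 5422 bp upstream of En1, a homeobox gene, was at 0.00% to 14.8% (median 0.509%) in DDT, with the next covered fragment at 7.53%. For Arhgap40 the DDT median was 0.641% and the adjoining fragment was at 24.7% ± 23.8 (SD).

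Long CpG-poor members were longer than the fragments above 20% of the same class. Of the 259, 130 (50.2%) were above 100 bp, against 621 of 3615 (17.2%), and reads of 50 bp do not reach across them. They were placed upstream of a gene by the deposited annotation in 167 cases (64.5%), in an intron in 71 (27.4%) and in an exon in 14 (5.41%), against 57.3%, 26.9% and 11.6% of the fragments above 20%. An end that recurred in the genome was found for 20.1% of the 259 and 21.4% of the fragments above 20%. Of the 259, 41 (15.8%) lay more than 5000 bp from a start, had both ends 1 time in the genome and had a level in all 24 libraries, against 390 of the 3615 fragments above 20% (10.8%). At chr2:39532970-39533015, whose ends recur up to 5792 times in the genome, a short member had a median of 7117 calls per library a VEH level of 12.5% ± 0.741 and a DDT level of 14.8% ± 10.1 (SD, n = 12 each), with DDT libraries at 4.31% to 45.6%. Reads of other copies cannot be told apart from its own.

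Sequence letters around the long CpG-poor members were compared in windows of 300 bp, on both strands. The GC box GGGCGG, bound by SP1 and KLF factors, was present in 65 of 259 windows (25.1%), in 11.1% of the windows of fragments above 20% in the same class, in 65.0% of windows of start-proximal members and in 44.8% over all covered fragments. For the C/EBP letters TTGCNNAA the shares were 10.8% of long CpG-poor members and 9.21% of the fragments above 20%, and for the AP-1 letters TGANTCA they were 7.72% and 7.66%. The core letters of the CTCF motif were in 6 windows (2.32%) against 0.609%, where the share was 2.27% for start-proximal members and 1.42% over all covered fragments. AGGTCA, of nuclear receptors, was in 14.7% and 15.1%. A match is a description of letters and not of a bound factor.

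Short CpG-poor members followed fragment length. Among covered CpG-poor fragments chosen by the same distances, with 1 CpG each, 433 of 1406 (30.8%) of 30 to 49 bp were members, and 25 of 632 (3.96%) of 50 bp or more. The median DDT level of these fragments was 44.02% below 50 bp and 91.7% from 50 bp. Base by base, the share of members was 33.3% at 47 bp, 30.7% at 48 bp, 24.6% at 49 bp, and 0 of 33, 35, 42 and 25 fragments at 50, 51, 52 and 53 bp. With 2 or more CpGs the share was 4.75% below 50 bp and 7.22% from 50 bp, with median DDT levels of 73.1% and 89.5%. The step thus lay at the read length and was largest where the cut site gave the only CpG. In island cores, where nearly all CpGs are unmethylated, the median DDT level was 3.54% below 50 bp and 4.01% from 50 bp. The part of the filled-in cytosine in this step was not tested. Above 100 bp the share of members was higher again, with 1 CpG at 15.4% up to 150 bp (52 fragments) and 26.3% beyond (19 fragments).

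**Figure D5:**
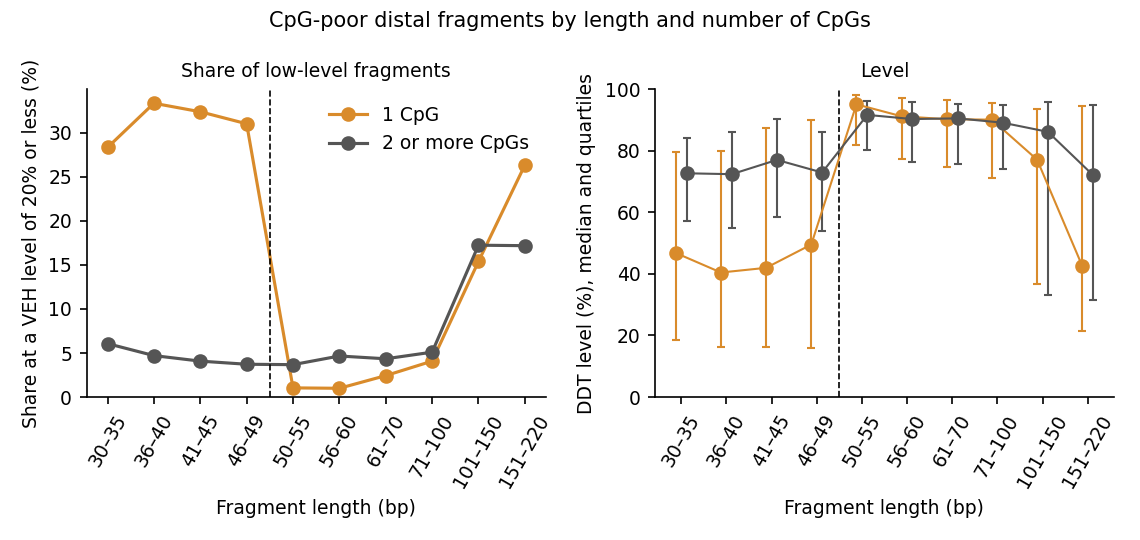
Share of covered CpG-poor fragments, far by the deposited distances, that were members (left, y axis, %) and their DDT level as median and quartiles (right, y axis, %), by fragment length (x axis, bp) for fragments with 1 CpG and with 2 or more, with a dashed line at the read length. With 1 CpG the share is 31.0% at 46 to 49 bp and 1.05% at 50 to 55 bp, and the median level is 49.5% and 95.02%.

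At the median, a short CpG-poor member had an SD of 5.28 points over the DDT libraries and a start-proximal member one of 2.79 points. Both SDs include DDT replicate 4 where it had a level, and its medians for these classes were 0% and 0.03%. Its part in the difference was not tested. In an intron of Speg, which encodes a kinase of striated muscle, chr1:75404628-75404675 was at 10.5% to 16.5% (median 14.4%) in VEH and, DDT replicate 4 at 0 apart, at 11.1% to 17.1% in DDT, on a median of 945.5 calls. The nearest covered fragments had DDT levels of 94.7% and 74.4%. The Nfasc fragment, in the gene of the adhesion protein neurofascin, was at 8.57% to 14.98% in VEH and at 8.50% to 13.9% in 11 DDT libraries, while DDT replicate 4 was at 96.0%, so the DDT mean of 19.2% ± 24.3 (SD, n = 12) rested on that library. Of the 499 short members 433 (86.8%) had 1 CpG, against 973 of 2296 (42.4%) of the fragments above 20%.

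CpG-dense members away from starts made up the remaining 367. Of these 220 (59.9%) lay more than 5000 bp from a start. The lowest was in Shf, an adaptor protein gene, at chr2:122348909-122348960, 5171 bp from a start, at 0.121% to 1.58% in VEH and 0.065% to 1.06% in DDT on a median of 1056.5 calls. A pair in Slc12a5, which encodes a potassium and chloride cotransporter, lay 1097 and 1162 bp from a start with DDT levels of 3.43% ± 1.16 and 4.47% ± 1.54 (SD, n = 12). Fragments of this class had low surroundings, with a median of 5.84% within 100 bp and 8.10% at 500 to 1000 bp. Repeats made up most of the length for 2.997% of them, against 58.1% of the CpG-dense fragments above 20%.

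Members were counted for a gene where it was named by the deposited annotation, where they lay in its body, or where a start of it was within 1000 bp. The list of brown fat and adipocyte regulators had 124 covered fragments far by the deposited distances, of which 64 (51.6%) were members, against 28.5% over all such fragments. Of the 64, 49 were start-proximal, and 12 of 44 genes had members counted for them. Members lay in or at the start of Bmp7, a growth factor that drives brown adipocytes, and of the nuclear receptor genes Esrrg, Rxra and Nr1h3. In Nr4a2, an orphan nuclear receptor gene, chr2:57116856-57116906 was at 0.00% to 6.59% (median 1.05%) in VEH and 0.00% to 2.13% (median 0.00%) in DDT. The fragment adjoining it is the one just inside the limit, with a DDT level of 15.6%. At Mecom, a zinc finger factor, chr3:30508622-30508684 was at 0.00% to 1.10% in VEH and 0.00% to 2.24% in DDT and was assigned to Mynn, 93404 bp away. For lipid and insulin signalling the count was 58 of 112 (51.8%), with a median DDT level of 4.56%, and members lay in or at the start of Irs1 and Pik3ca, both of insulin signalling. Some genes of the lists, Foxo1 and Cebpb among them, were counted through the deposited name alone.

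Among developmental transcription factors 177 of 364 fragments (48.6%) were members, in 30 of 61 genes, and they lay in or at the start of Pax1, Pax3, Pax6, Pax8, Lhx2, Lhx9 and Hoxd3 among others. In Zfp217 chr2:170130779-170130846 was at 0.00% to 1.49% and 0.00% to 2.15%. Imprinted genes held 19 of 54 (35.2%), of which 17 were start-proximal, in or at Gnas and H13 or assigned to Gpr1. In Gnas, which encodes the stimulatory G protein alpha subunit, chr2:174330468-174330523 was at 0.421% to 1.51% in VEH and 0.00% to 2.81% in DDT on a median of 1925 calls.

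The same counts were made for genes of other cells of the tissue, with no test of a difference. For blood and immune genes the count was 15 of 62 (24.2%), and the lowest of these, such as chr2:122118347-122118388 with a DDT level of 5.10% ± 1.64 (SD, n = 11), overlapped a start of Spg11 while being assigned to B2m. For muscle genes it was 5 of 31 (16.1%), none start-proximal. A member 15760 bp upstream of Des, which encodes the filament protein desmin, at chr1:75344423-75344532, was at 0.00% to 25% (median 6.77%) in VEH and 0.00% to 17.8% (median 10.7%) in DDT. Members in Casq2 and Ttn had DDT means of 9.54% ± 9.42 (SD, n = 11) and 13.4% ± 8.29 (SD, n = 10). In the 3 lists with the highest shares, 49 of 64, 39 of 58 and 108 of 177 members were start-proximal, so the counts describe starts for the most part.

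The levels in DDT and VEH were compared with an ANOVA F test over all 20225 fragments with at least 8 levels in each group, of which 2883 were members. The other 94 members lacked DDT levels for the test. At an adjusted p under 0.05 stood 0 members, against a background of 0% (0 of 20225), and no adjusted p was below 0.869. Before adjustment 117 members had a p under 0.05 (4.06%), against a background of 4.18%. Of these 21 were higher in DDT and 96 lower, where the background was 1.25% higher and 2.93% lower. The median difference, DDT minus VEH, was -0.13 percentage points over the members and -0.16 over all tested fragments. Differences above 5 points were seen at 172 tested members, 126 higher and 46 lower, and over all 20225 tested fragments at 1738, 679 higher and 1059 lower. Since members had to be low in VEH, differences upward are favoured by the choice and nothing is read from the direction. By class the counts at an unadjusted p under 0.05 were 73 of 1801 start-proximal members (4.05%), 9 of 355 CpG-dense members away from starts (2.54%), 24 of 485 short (4.95%) and 11 of 242 long CpG-poor members (4.55%).

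The 5 members with the smallest p did not pass adjustment (adjusted p = 0.869 for each, ANOVA F test). One was a long CpG-poor fragment upstream of Cdk5r2, an activator of a neuronal kinase, at chr1:74806767-74806826, with the sequence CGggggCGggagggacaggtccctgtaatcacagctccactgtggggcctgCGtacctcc. It was at 3.39% to 20% (median 10%) over 11 VEH libraries and 0.00% to 5.56% (median 3.30%) over the DDT libraries that had 10 calls, which overlap. It rested on a median of 28.5 calls. Its deposited distance to Cdk5r2 was 48204 bp, and the nearest annotated start, of Gm32099, lay 11688 bp away. A fragment in Obsl1 that overlapped a start of Tmem198 and a fragment in Slc12a5 were lower in DDT by 1.63 and 1.82 points. The printed Agap1 fragment was at 6.90% to 17.4% in VEH and 0.00% to 13.8% in DDT. In an intron of Aim2, a sensor of DNA in the cytosol, chr1:173404940-173404980 was higher in DDT, at 14.4% ± 3.74 (SD, n = 10) against 9.43% ± 2.41 (SD, n = 12). The groups overlapped at all 5.

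Members with the highest DDT level rested on few libraries or few calls. The fragment at chr1:13472634-13472788, all of it in repeats, had a DDT mean of 33.2% ± 25.8 (SD, n = 12), with DDT replicates 3, 4 and 12 at 62.3%, 99.1% and 56.2% and the others at 13.5% to 24.1%, while VEH libraries were at 14.7% to 25.6%. Those in Col19a1 and Ralgps1 had medians of 15 and 10 calls per library. A single VEH library could also stand far off. At chr3:84259248-84259352 near a start of Trim2, a ubiquitin ligase gene, VEH replicate 1 was at 100% and the other 11 VEH libraries at 0.00% to 14.3%.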

How the data were processed

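BAT of infant mice at postnatal day 12 was profiled by RRBS in 12 VEH and 12 DDT libraries, 1 pool of female littermates each. The authors trimmed reads, aligned them to GRCm38 with Bismark 0.15.0 and Bowtie2, and deposited counts of methylated and not methylated CpG calls per MspI fragment, not normalized, with an annotation whose release is not given in the sources used here. Its distances in bp (score columns, deposited by the authors) served the rule. The table covers chromosomes 1, 2 and part of 3. Calls are not independent molecules, so intervals and floors cover counting error only.

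The members and lists were chosen with earlier results of these data known. Classes, the 49 bp split and some printed fragments were chosen after values were seen. The 30-base ends of each fragment were counted in the genome. Islands were scanned with a CpG score of 17, a length of at least 200 bp, GC of 50% and observed over expected CpG of 0.6.

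The main set of named fragments followed a fixed rule: the 8 lowest in DDT with a median of 50 or more calls, the 5 smallest p, the 3 longest runs, up to 3 of each gene list, 3 on each side of the limit, the 3 highest in DDT, 3 with repeated ends, 3 nearest a start and 3 widest over VEH. Others were added later, outside that rule. Among them were the fragments of Ptma, En1, Itpkb, Arhgap40, Cdh22, Spag17, Nfasc and Sgk3, the printed Speg fragment and the higher of the Slc12a5 pair. Levels (percent, minimum of 10 calls) were compared by ANOVA F test with Benjamini-Hochberg adjustment, tested on simulated data first. Alternatives were limma 3.58.1 on log2 ratios with a pseudocount of 1, a quasi-binomial regression, a depth covariate, a replicate block, other minimums and left-out libraries. Python 3.11.15, SciPy 1.17.1 and R 4.3.3 were used. Results at some genes that the rule would name are not reported here.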

Additional observations from a re-analysis of the deposited data

Results flagged for a closer look

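Among the named fragments, 24 groups of 4 to 10 levels were examined for a library far from the rest by Dixon's criterion, and 11 had one. The chance rate of that criterion, about 1 in 20, holds for normally distributed levels. Several of the flagged groups were mostly at 0 on few calls, so no excess over chance is read from the count. In each of these groups at least 2 libraries had fewer than 10 calls. In the Kif26b run they were VEH replicate 4 at 7.14% and DDT replicate 1 at 8.70% (chr1:178527918-178527960), DDT replicate 12 at 2.70% (chr1:178529163-178529266) and VEH replicate 12 at 50% (chr1:178530383-178530474). In the Sp3 run they were VEH replicate 6 at 32.6% (chr2:72980053-72980151) and DDT replicate 10 at 27.3% (chr2:72980858-72980941). DDT replicate 5 stood off at 7.14% in Gnas (chr2:174329945-174330077), DDT replicate 6 at 71.4% in Ralgps1 and DDT replicate 2 at 0% in Fmn2. In Fcrlb VEH replicate 1 was at 79.3% and DDT replicate 9 at 35%.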

How the results depend on the processing

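A VEH limit of 10% in place of 20% left 1888 members, with a median DDT level of 3.97% and 99.6% of them at a DDT level of 20% or less, 173 CpG-poor members in place of 758, and 56.1% of CpG-poor members at 49 bp or less in place of 65.8%. A quasi-binomial regression put 214 members at an unadjusted p under 0.05 in place of 117, as it put 7.72% of all fragments there, and 0 at an adjusted one. The share near a start was 50.9% with protein-coding transcripts alone and 66.3% within 2000 bp, and the share with a CpG-dense surround 64.5% in windows of 300 bp. Replicate numbers did not pair the litters (correlations of deviations from -0.18 to 0.20, above 0.1 in 3 of 12 pairs). With the replicate block 104 members were at an unadjusted p under 0.05. Leaving out 1 library gave 2923 to 2955 members, a median DDT level of 6.77% to 7.19%, a share at 20% or less of 95.9% to 96.8%, and 98 to 131 members at an unadjusted p under 0.05. Without DDT replicates 4 and 12, an alternative added after the data were seen, there were 125. No fit put a member at an adjusted p under 0.05 (limma 0, with 100 at an unadjusted p under 0.05). Of 2911 alternative values for the named fragments, 2 moved by 1 SD or more, both with a turn of sign: 1.53 points at chr1:178529163-178529266 by quasi-binomial regression and 3.21 points at chr2:72980053-72980151 with a minimum of 5 calls; the cause was not tested. Differences from limma are on a log scale and were not set beside these.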
